A study of Mus musculus with 8 samples.

Results

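Yap1, Wwtr1, Ly6a, Clu, Anxa1, Ccn1, Ccn2, Areg and Ereg were followed in bulk RNA-seq of mouse small intestine, because they belong to the Yap and regeneration response that prostaglandin E2 (PGE2) from fibroblasts can drive in the gut epithelium. These 9 genes were chosen by name and not by a cut on their values, but with earlier results of these data known. Of them, 7 were among the 11554 genes measured in crypts, 7 were among the 12701 genes measured in villi, and 6 were in both, against 11227 genes shared by both tissues. Wwtr1 was listed in crypts only and Ereg in villi only. The smallest mean value of a listed gene was 48.4 in crypts and 8.82 in villi. A gene not listed in a tissue is therefore not shown to be silent there. Ccn2 was not analysed here.

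The sequenced RNA came from small intestinal crypts and villi of Ctrl and Gli1-Ptgs cKO animals, all on the C57BL/6 background and taken 1 month after tamoxifen. In the Gli1-Ptgs cKO mice a tamoxifen-inducible Cre driven by Gli1 deletes floxed Ptgs1 and Ptgs2 (encoding COX1 and COX2) in mesenchymal cells, so the epithelium itself was not the target of the deletion. The sample labels give the Ctrl mice as Gli1-CreERT2; Rosa26-tdTomato with the genotype WT, whereas the study's text elsewhere describes Ctrl animals as floxed without Cre, and which applied here is not settled by the sources used. The comparison asks whether these genes differ in epithelium whose Gli1-expressing mesenchymal cells lack COX. Each group has 2 libraries per tissue, but the 2 Ctrl villus columns held identical values and were counted as 1 library, which leaves 7 libraries. The study's methods call the replicates biological, and the p-values measure only the spread between these few libraries.

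PGE2 is made from arachidonic acid by the COX enzymes and acts through receptors that include EP4, the product of Ptger4. YAP and TAZ, the products of Yap1 and Wwtr1, are co-activators that the Hippo kinases hold in the cytoplasm; when released they enter the nucleus and bind TEAD factors at target genes such as Ccn1 and Ccn2. After injury the intestinal epithelium passes through a fetal-like state marked by Ly6a, Clu and Anxa1, and makes the EGF receptor ligands Areg and Ereg. The activity of YAP and TAZ is set largely by their location and phosphorylation, which RNA levels do not show.

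Sequences near the start sites are shown to let a reader see which members carry motifs of TEAD factors, or of the cAMP signalling that EP4 switches on. RefSeq (GRCm38.p6) gave a promoter for 5 members: Yap1, Wwtr1, Anxa1, Ccn1 and Areg. The 250 bases before each start site were searched on both strands for the TEAD-type motif GGAATG and for the cAMP response element TGACGTCA. GGAATG was in the promoters of Yap1, Wwtr1, Anxa1 and Ccn1 and in 12.6% of 32851 promoters. TGACGTCA was in that of Areg and in 1.55% of all promoters. The windows below run 5′ to 3′ along the gene, with the motif in capitals (CATTCC where it is on the opposite strand).
Yap1, chr9:8004705-8004764, minus strand: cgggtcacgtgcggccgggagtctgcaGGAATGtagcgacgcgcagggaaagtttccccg
Wwtr1, chr3:57576014-57576073, minus strand: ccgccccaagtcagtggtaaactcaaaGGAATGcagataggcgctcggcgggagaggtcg
Anxa1, chr19:20390875-20390921, minus strand: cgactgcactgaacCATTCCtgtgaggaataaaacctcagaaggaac
Ccn1, chr3:145650056-145650115, minus strand: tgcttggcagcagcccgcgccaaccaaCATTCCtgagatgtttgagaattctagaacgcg
Areg, chr5:91139511-91139572, plus strand: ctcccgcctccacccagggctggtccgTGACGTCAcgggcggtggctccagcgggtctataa
These matches are descriptions of the letters and were not tested for binding.

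Values are normalized counts, that is, the authors' gene counts divided by a size factor for each library. Reads on listed genes ranged from 16853017 to 21121714 in crypt libraries and from 13477600 to 15751024 in villus libraries. One cKO crypt library, replicate 1, stood apart. Its log2 difference from the other crypt libraries correlated with transcript length at a Spearman rho of -0.67 across 11546 genes, against 0.24 to 0.57 in the other crypt libraries. Both cKO villus libraries differed from the Ctrl villus library in the opposite sense, with rho of 0.54 and 0.51, so long transcripts were relatively higher in them. Fold changes are therefore also given after a correction that removed the trend with transcript length from each library. The test was limma-trend over log2(normalized count + 1) of all genes, and a log2 fold change is cKO minus Ctrl on that scale, followed by its standard error (SE). The study's threshold was an unadjusted p under 0.01 with an absolute log2 fold change over 1, which it applied to DESeq2 results. Here that threshold is applied to limma-trend p-values and given beside the Benjamini-Hochberg adjusted p. Counts at it are therefore not the study's own.

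In crypts none of the 7 measured members passed a test between genotypes. At the study's threshold 0 of 7 were called, where 0.182% of all genes were (20 higher and 1 lower, or 18 and 4 when libraries were scaled by their size alone). No member and 0.0% of all genes passed an adjusted p of 0.05 in limma-trend, and at an unadjusted p under 0.05 the counts were 0 of 7 members and 0.632% of all genes. Both cKO libraries lay above both Ctrl libraries in 0 of 7 members against 9.73% of all genes, and below them in 0 of 7 against 11.3%. Without cKO replicate 2 the calls over all genes went to 593 higher and 288 lower, still with none among the members. The median log2 fold change of the members was 0.05 (0.45 without that library), against -0.01 over all genes. A p that misses the threshold does not show equal levels, and the intervals below give the differences these 4 libraries could not exclude. With 2 libraries a group the smallest p of the exact two-sided permutation test is 0.333, and the members' values ranged from 0.667 to 1.00.

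The values of both co-activators overlapped between the genotypes. Yap1 (ENSMUSG00000053110, chr9:7931999-8004596, GRCm38) held 1805 and 1835 normalized counts in Ctrl crypts, against 1711 and 2029 in cKO crypts. The cKO libraries were the lowest and the highest of the 4, on either side of both Ctrl libraries. Its log2 fold change was 0.03 (SE 0.24, 95% interval -0.53 to 0.60, limma-trend adjusted p = 1.00). Wwtr1 (ENSMUSG00000027803, chr3:57455649-57575910) was far less abundant, with 95.6 and 115 normalized counts in Ctrl and 82.9 and 143 in cKO. Here too the groups overlapped, and the log2 fold change was 0.05 (SE 0.47, 95% interval -1.06 to 1.17). On the scale of CPM, reads scaled to an equal total per library, divided by the longest transcript in kilobases, Yap1 lay between 15.8 and 20.4 and Wwtr1 between 0.860 and 1.62 in the crypt libraries.

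**Figure D1:**
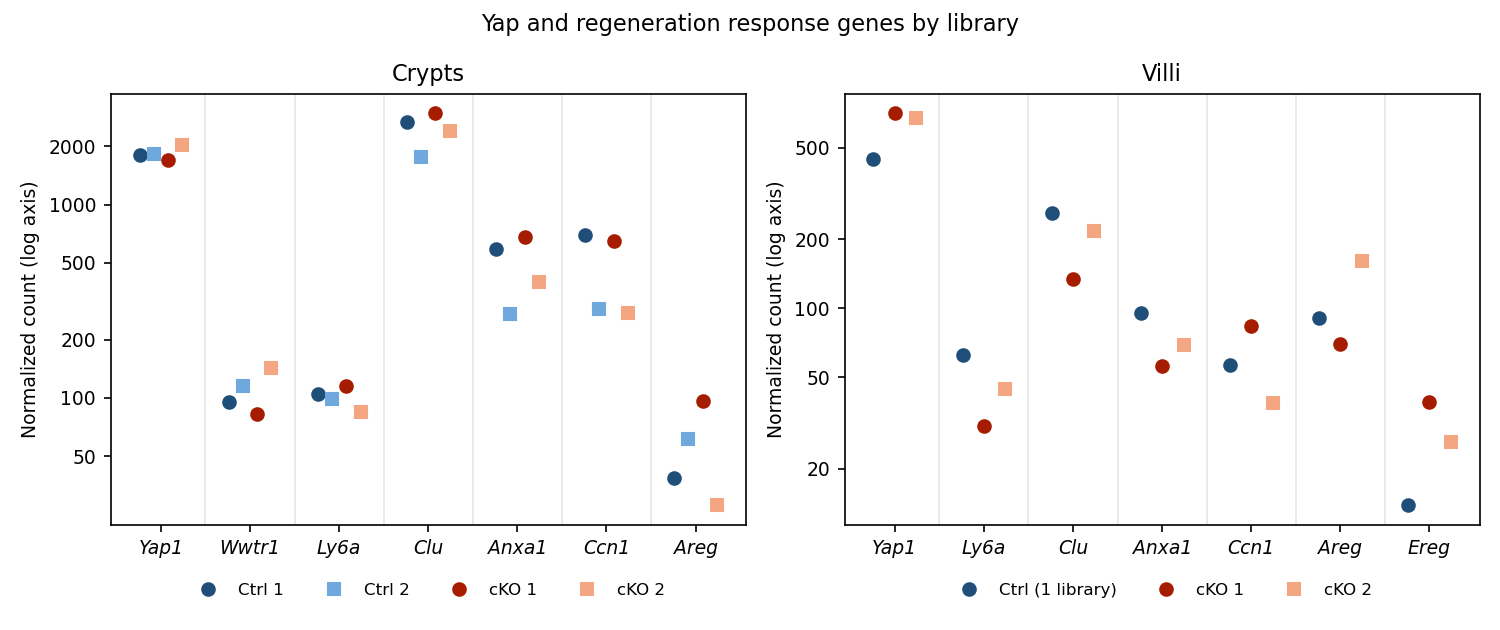
Normalized counts of the measured members in each library, on a log axis, with crypts on the left and villi on the right. Each point is 1 library; in crypts the Ctrl and cKO points overlap for every gene, and in villi Yap1 and Ereg are higher in both cKO libraries than in the Ctrl library.

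The fetal-like genes also overlapped. Ly6a (ENSMUSG00000075602, chr15:74994877-74998031) encodes Sca-1, a small surface protein that marks regenerating and fetal intestinal epithelium. It held 105 and 99.0 normalized counts in Ctrl and 115 and 84.9 in cKO crypts, with a log2 fold change of -0.04 (SE 0.44). Ly6a has close relatives in a gene cluster and how shared reads were counted is not given in the sources used here, so its level is uncertain. Clu (ENSMUSG00000022037, chr14:65968483-65981547) encodes the secreted chaperone clusterin and marks revival stem cells after injury. Its normalized counts were 2661 and 1772 in Ctrl and 2974 and 2398 in cKO crypts, so the highest library was a cKO library and the lowest a Ctrl library. The log2 fold change of Clu was 0.30 (SE 0.29, 95% interval -0.39 to 0.99). Anxa1 (ENSMUSG00000024659, chr19:20373428-20390944), a phospholipid-binding annexin with pro-repair actions, held 588 and 271 normalized counts in Ctrl and 683 and 397 in cKO. The Ctrl libraries were further from each other than the group means were, and the log2 fold change was 0.38 (SE 0.46, 95% interval -0.71 to 1.47).

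Among the secreted effectors, Ccn1 (ENSMUSG00000028195, chr3:145646976-145649981), the matricellular protein CYR61 and a standard readout of YAP, held 697 and 287 normalized counts in Ctrl crypts. In the cKO crypts it held 646 and 276, nearly the same pair of values. The log2 fold change was -0.08 (SE 0.55, 95% interval -1.40 to 1.23). Areg (ENSMUSG00000029378, chr5:91139599-91148432) encodes amphiregulin, an EGF receptor ligand. It was low, with 38.4 and 61.2 normalized counts in Ctrl and 96.5 and 27.9 in cKO crypts. The cKO libraries again held both extremes, and the log2 fold change of 0.10 had an SE of 0.75. After length correction the crypt log2 fold changes of the 7 members lay between -0.41 for Ly6a and 0.20 for Anxa1, and none passed an adjusted p of 0.05.

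**Figure D2:**
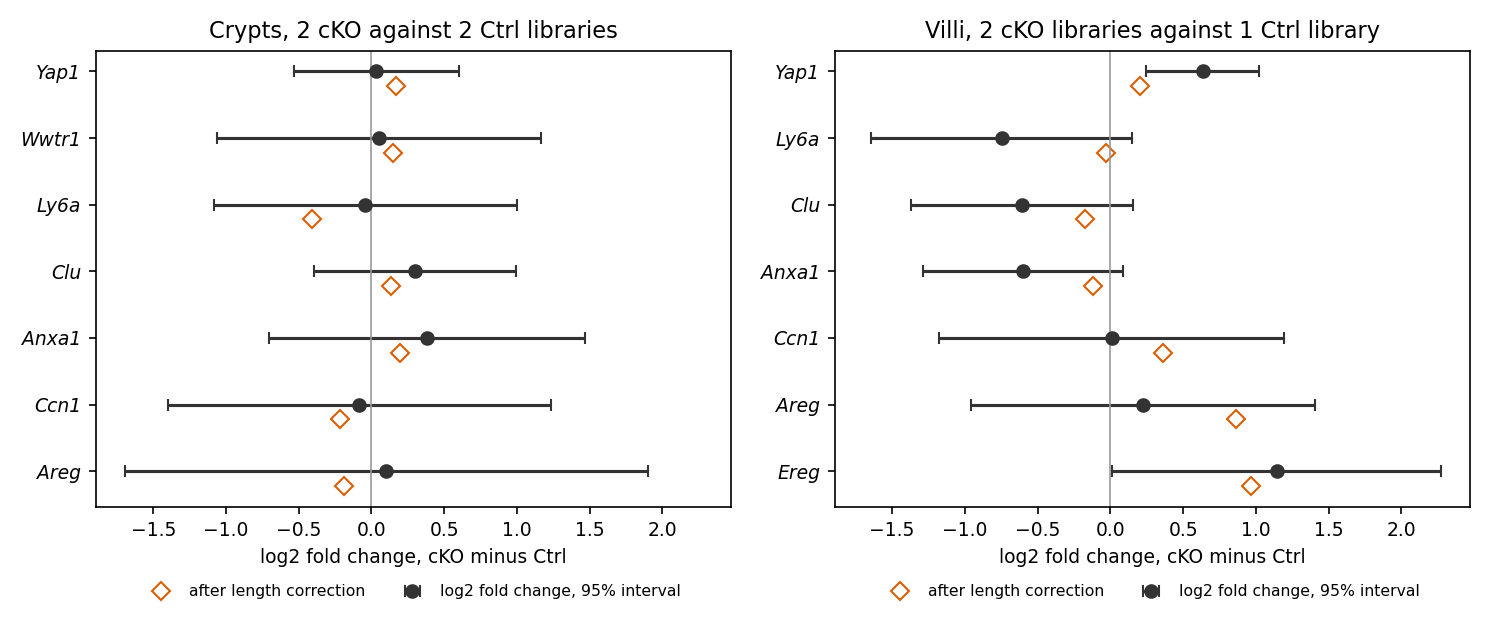
Log2 fold change, cKO minus Ctrl, of each measured member with its 95% limma-trend interval (black) and the value after correction for transcript length (orange diamonds). All crypt intervals include 0; in villi those of Yap1 and Ereg do not, and the corrected Yap1 value is 0.20 against 0.63 before correction.

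The spread of Ccn1 and Anxa1 in crypts followed the library number and not the genotype. Ccn1 was 1.28 higher on the log2 scale in replicate 1 than in replicate 2 among the Ctrl crypts, and 1.22 higher among the cKO crypts. For Anxa1 the same differences were 1.12 and 0.78, for Clu 0.59 and 0.31, and for Ly6a 0.08 and 0.44. In these 4 of 7 members both libraries numbered 1 were above both numbered 2, as in 25.8% of all genes. Yap1 and Wwtr1 were the reverse, 2 of 7 against 26.4% of all genes. The labels do not say that equal numbers share a litter or a day. Ccn1 was 1 of 33 genes, 0.286% of those measured, in which both libraries numbered 1 held over double the counts of both numbered 2. That comparison was chosen after the values were seen.

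Immediate early genes, which growth factors and tissue handling switch on within minutes, varied along with Ccn1. Of the 17 measured, 13 were higher in both libraries numbered 1, against 25.8% of all genes. In 2 of the 17 both libraries numbered 2 were higher, against 26.4% of all genes. Fos held 8248 and 3385 normalized counts in Ctrl and 8653 and 3979 in cKO crypts. Egr1 held 6297 and 2548 in Ctrl and 4374 and 2785 in cKO. Dusp1, a phosphatase of MAP kinases, held 892 and 223 in Ctrl and 860 and 344 in cKO crypts, and was also among the 33 genes. Hbegf, another EGF receptor ligand, held 614 and 221 in Ctrl and 495 and 250 in cKO. None of the 17 passed the study's threshold between genotypes, and their median log2 fold change was 0.15. Markers of other cells differed between the same libraries. The summed level of 10 measured immune markers was 717 and 246 CPM in Ctrl and 434 and 326 CPM in cKO crypts, higher in both libraries numbered 1. Cd74, which is in that sum, held 10229 and 1929 normalized counts in Ctrl and 6554 and 2248 in cKO. Taken singly, 1 of the 10 was higher in both libraries numbered 1, against 25.8% of all genes. The reverse held for 5 of the 10, against 26.4% of all genes. Of 10 crypt markers 6 were higher in both libraries numbered 1, against 25.8% of all genes. The sum of 9 mesenchymal markers was 929 and 483 CPM in Ctrl and 522 and 788 CPM in cKO, and did not follow the number. What part handling or cell makeup had in the Ccn1 and Anxa1 values was not tested.

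**Figure D3:**
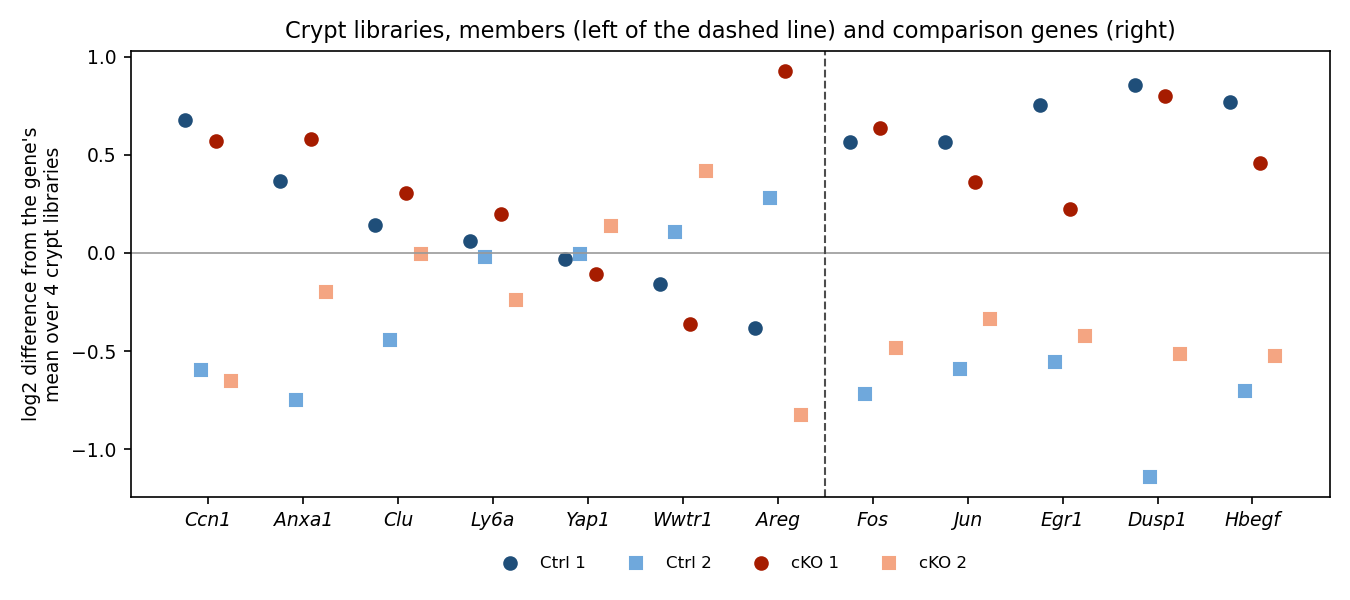
Log2 difference of each crypt library from the gene's mean over the 4 crypt libraries, for the 7 measured members and for Fos, Jun, Egr1, Dusp1 and Hbegf. Circles are libraries numbered 1 and squares those numbered 2; for Ccn1, Anxa1, Clu, Ly6a and all 5 genes right of the dashed line both circles lie above both squares.

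The upstream cascade had no calls in crypts either. Of 25 measured genes of the Hippo cascade and the TEAD partners, 0 were called in either direction and 2 had both cKO libraries below both Ctrl libraries, against 11.3% of all genes. Their median log2 fold change was -0.17 and -0.03 after length correction. The kinase gene Lats1 held 2596 and 2298 normalized counts in Ctrl and 1599 and 2651 in cKO. Stk3, which encodes the kinase MST2, held 543 and 655 in Ctrl and 412 and 503 in cKO crypts, a log2 fold change of -0.39 (SE 0.28). Tead1, a DNA-binding partner of YAP, held 801 and 766 in Ctrl and 461 and 914 in cKO. In all 3 of these genes cKO replicate 1, the library with the length trend, was the lowest. The list's extremes were Amotl1, a YAP-binding angiomotin, at -0.70 and Frmd6 at 0.30, neither called.

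Of 19 further target genes of YAP measured in crypts, 4 of which are also in the Hippo list, 0 were called, with a median log2 fold change of -0.05. The highest was F3, the tissue factor gene, at 0.40 and the lowest Myof at -0.42, neither past the threshold. Axl, a receptor tyrosine kinase gene, held 218 and 67.5 normalized counts in Ctrl and 81.8 and 179 in cKO. Of 27 other fetal-like and regeneration genes 0 passed the study's threshold, and both cKO libraries were above both Ctrl libraries in 9 of the 27, against 9.73% of all genes. Ly6d, a relative of Ly6a, held 20.6 and 25.2 normalized counts in Ctrl and 97.6 and 59.2 in cKO crypts, a log2 fold change of 1.69 (SE 0.64, limma-trend adjusted p = 1.00). S100a6 and Anxa3 had log2 fold changes of 1.37 and 0.75. S100a6 held 1624 normalized counts in cKO replicate 1, the library with the length trend, and 507 in cKO replicate 2. After length correction Ly6d stood at 1.24, S100a6 at 0.93 and Anxa3 at 0.55. Taken as a list, the 27 had a median of 0.11 before that correction and 0.00034 after it. Both cKO libraries lay below both Ctrl libraries in 1 of the 27, against 11.3% of all genes.

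Of 6 measured relatives of the CCN and annexin genes, 1 passed the study's threshold. Anxa10, a gene known from gastric epithelium, held 514 and 575 normalized counts in Ctrl and 2075 and 1444 in cKO crypts. Its log2 fold change was 1.67 (SE 0.28), with a limma-trend adjusted p of 1.00 over all genes. Gastric epithelial markers moved with it. The study itself reports Anxa10 and several of these markers, such as Pgc and Tff2, as raised in the mutant crypts. The marker list was chosen with earlier results of these data known, so its counts are no independent test of that report. Of 11 measured, 9 passed the study's threshold, against 0.182% of all genes in either direction. All 11 were higher in both cKO crypt libraries, against 9.73% of all genes. Their summed level was 1531 and 1855 CPM in Ctrl and 5818 and 3732 CPM in cKO crypts, and the mucus gene Tff2 held 5274 and 4790 normalized counts in Ctrl and 25307 and 10074 in cKO. What part stomach-type cells had in the values of Ly6d, S100a6, Anxa3 and Anxa10 was not tested. In a bulk sample fewer cells of a type and less RNA per cell cannot be told apart.

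In villi Yap1 was the only member past an adjusted p of 0.05. It held 446 normalized counts in the Ctrl library and 709 and 676 in the cKO libraries, 1.55-fold higher, and both cKO libraries were above Ctrl. The log2 fold change was 0.63 (SE 0.16, limma-trend adjusted p = 0.028, and 0.028 in edgeR), short of the study's fold threshold. This call ended with length correction, at a log2 fold change of 0.20 and an adjusted p of 0.368. Scaling by library size alone gave 1.06, but it also moved the median of all genes to 0.42. The test rests on 1 Ctrl library assumed to vary like the cKO libraries, so a difference between mice cannot be told apart from genotype. With that design 1 of 7 members was higher, where 17.4% of all genes were, and 0 of 7 lower, where 17.4% were. At the study's threshold 0 of 7 members were called, against 16.5% over all genes (1247 up and 850 down with the deletion). With library size scaling those counts were 2828 higher and 159 lower, and 2 of 7 members, Yap1 and Ereg, were called.

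Ereg, the epiregulin gene (ENSMUSG00000029377, chr5:91074622-91093646) that neighbours Areg, held 13.9 normalized counts in Ctrl and 39.0 and 26.1 in the cKO villi. These came from 12 reads in Ctrl and 51 and 27 in cKO, so its level rests on few reads. Both cKO libraries were above Ctrl, with a log2 fold change of 1.14 (SE 0.46, 95% interval 0.01 to 2.27), but the limma-trend adjusted p was 0.102. Only scaling by library size took Ereg past the threshold, at 1.55 and an adjusted p of 0.018. Areg itself held 90.4 in Ctrl and 69.6 and 160 in the cKO villi, which lay on either side of the Ctrl library. The log2 fold change of Areg was 0.22 (SE 0.48) and 0.86 after length correction, with an adjusted p of 0.223.

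In normalized counts the fetal-like genes were below the Ctrl villus library in both cKO libraries, without passing the test. Ly6a held 62.6 normalized counts in Ctrl and 30.6 and 44.4 in cKO, a log2 fold change of -0.75 (SE 0.37, limma-trend adjusted p = 0.160). Clu held 261 in Ctrl and 134 and 217 in cKO, at -0.61 (SE 0.31). Anxa1 held 94.99 in Ctrl and 55.8 and 69.5 in cKO, at -0.60 (SE 0.28). After length correction the 3 values were -0.03, -0.18 and -0.12, and with library size scaling -0.32, -0.18 and -0.17. For Clu the order of the libraries depended on the scaling. In CPM over the 11227 shared genes Clu was at 15.5 in Ctrl and 11.2 and 16.8 in cKO, so cKO replicate 2 was above Ctrl. Ccn1 held 56.8 in Ctrl and 84.1 and 38.6 in cKO, with a log2 fold change of 0.01 (SE 0.48). Both cKO libraries were above Ctrl in 2 of 7 members, against 43.7% of all genes, and below it in 3 of 7, against 44.2%. After length correction 0 of 7 members passed an adjusted p of 0.05, where 19.1% of all genes did.

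The lists around the members are counted here at an adjusted p under 0.05, which 17.4% of all villus genes passed in each direction. After length correction 1155 of 12692 genes (9.1%) passed it as higher and 1272 as lower. Of 22 measured Hippo cascade genes, 7 were higher and 0 lower, and 1 was higher and 1 lower after length correction. Lats1 held 412 normalized counts in Ctrl and 797 and 750 in the cKO villi, a log2 fold change of 0.91 (SE 0.16, limma-trend adjusted p = 0.011), and 0.19 after length correction. Of 18 further YAP target genes 5 were higher and 0 lower, and 2 and 0 after correction. Of 11 measured genes of EGF receptor signalling, a list that also holds feedback regulators and the proteases that shed the ligands, 3 were higher and 0 lower. They were Erbb3, which encodes a partner of the EGF receptor, at 0.83, and the protease genes Adam10 at 0.94 and Adam17 at 1.97. After correction only Adam17 passed, at 1.72, and Erbb3 was at 0.28. Of 27 other fetal-like and regeneration genes 1 was higher and 9 lower, and 2 and 6 after correction. Anxa2, an annexin of fetal-like epithelium, held 24733 normalized counts in Ctrl and 10133 and 12597 in cKO villi, a log2 fold change of -1.13 and -0.85 after correction, with an adjusted p of 0.037 after it. Ly6e held 1939 in Ctrl and 735 and 867 in cKO, at -1.28. Lama3, a gene of the same list that rose, held 16.2 in Ctrl and 74.9 and 105 in cKO. It was at 2.38, and 1.37 after correction, and rested on 14 reads in the Ctrl library. In CPM over the shared genes, the Ctrl crypt mean of Anxa2 was 0.241 times its Ctrl villus level.

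Markers of other cell types were measured in the same villus libraries. The median log2 fold change was -0.58 for 9 epithelial markers (-0.05 after length correction) and 1.53 for 7 gastric markers (2.32 after it). For 10 villus enterocyte markers it was -0.28 (0.03 after correction) and for 10 mesenchymal markers 0.03 (-0.38 after correction). The 5 measured endothelial markers were at -0.47 (-0.06 after correction). Of 10 measured crypt markers 1 was higher at an adjusted p under 0.05, against 17.4% of all genes, and 6 were above Ctrl in both cKO villus libraries, against 43.7%. Their summed level was 508 CPM in Ctrl and 1079 and 705 CPM in cKO. The proliferation gene Mki67, the highest of the 10, held 142 normalized counts in Ctrl and 609 and 580 in cKO. Its log2 fold change was 2.05 before length correction. The lowest of the 10 was at -0.52, and their median was 0.41 (0.92 after length correction). In both cKO libraries 1 of the 10 was below Ctrl, against 44.2% of all genes. Of 11 immune markers 7 were lower and 1 higher at that adjusted p, against 17.4% of all genes in each direction, and their summed level was 1532 CPM in Ctrl and 646 and 650 CPM in cKO. Yap1 was higher in crypts than in villi in either genotype, and some stromal and immune cells make Ly6a, Clu and Anxa1. What part the cell makeup had in the members' villus values was not tested.

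Across tissues, all 6 members measured in both but Areg were higher in crypts. The levels here are CPM over the 11227 shared genes, and were compared without a test because the tables were normalized separately and Ctrl villi are 1 library. The mean of the Ctrl crypts was 7.89 times the Ctrl villus level for Ccn1, 7.71 times for Clu, 4.11 times for Anxa1, 3.69 times for Yap1 and 1.47 times for Ly6a. For Areg it was 0.496 times, that is, lower in crypts. In the cKO mice the same ratios were 4.63 for Ccn1, 9.78 for Clu, 5.44 for Anxa1, 1.72 for Yap1, 1.70 for Ly6a and 0.341 for Areg. Every crypt library was above every villus library for Clu, Anxa1, Ccn1, Yap1 and Ly6a. The share of all shared genes with such a separation was not computed, so it cannot be read as particular to the members. These levels were not corrected for transcript length, and long transcripts were relatively higher in the cKO villus libraries than in the Ctrl one. What part that trend had in the ratios, as in those of Yap1, was not tested. For Areg the 4 crypt libraries lay between 1.49 and 4.72 CPM and the villus libraries between 5.37 and 12.4 CPM.

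Per kilobase of the longest transcript, Clu was the most abundant member in Ctrl crypts, at 80.1 and 51.5 CPM. Yap1 followed at 18.6 and 18.3, beside Anxa1 at 19.1 and 8.51 and Ccn1 at 18.8 and 7.48, and these 3 neighbours overlapped. Ly6a came next at 5.99 and 5.45, then Areg at 1.72 and 2.65, and Wwtr1 at 1.11 and 1.29. In the cKO crypts the order was again led by Clu, at 80.1 and 70.4. There Areg, at 3.87 and 1.22, overlapped Wwtr1, at 0.860 and 1.62. In the Ctrl villus library Clu was at 8.52, Yap1 at 4.997, Areg at 4.40, Ly6a at 3.88, Anxa1 at 3.36, Ccn1 at 1.66 and Ereg at 0.199, with no replicate to rank neighbours.

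**Figure D4:**
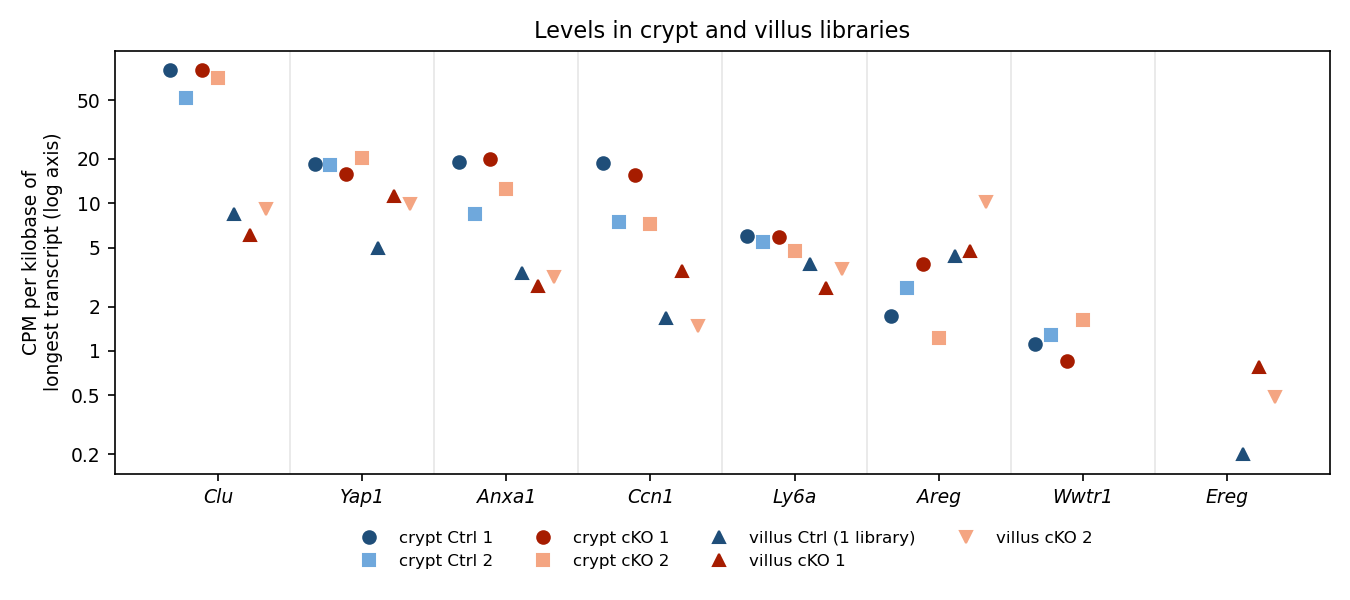
CPM per kilobase of the longest transcript, on a log axis, in the 4 crypt libraries (circles and squares) and the 3 villus libraries (triangles). Clu is the highest member in crypts, Areg is the member that lies higher in villi, and Ereg is the lowest in villi, at 0.199 in the Ctrl library.

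The genes with patterns most like each member were listed by Pearson correlation of log2(CPM + 1) over the 7 libraries. These points share tissue, depth and the length trend, so the values are descriptions. Yap1 was most like Cyfip1, Rffl and Ap5m1, each at 0.999. Clu was most like Rmi2, Pold1 and E2f2, between 0.998 and 0.999, where Pold1 encodes a DNA polymerase subunit and E2f2 a cell-cycle transcription factor. Anxa1 was most like Hdac10, Nle1 and Traip at 0.992 to 0.997, and Ccn1 most like Tmem251, Cars2 and Slc25a25 at 0.989 to 0.994. Ly6a was most like 1810065E05Rik, Fdft1 and Tubg1 at 0.979 to 0.980. Areg was most like the Wnt ligand gene Wnt4 at 0.959, followed by Chmp5 and Gtf2f1. Among the members themselves Clu and Anxa1 were the closest pair at 0.973, and Areg was negative with each of the other 5, from -0.58 with Ly6a to -0.75 with Clu.

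The PGE2 genes were measured beside the members. The deletion is in mesenchymal cells, and crypt and villus samples need not show it. Ptgs1 held 365 and 164 normalized counts in Ctrl and 178 and 199 in cKO crypts, so the groups overlapped, and Ptgs2 was not analysed here. Ptger4, the gene of EP4, held 593 and 585 in Ctrl and 471 and 560 in cKO crypts, a log2 fold change of -0.20 (SE 0.27). Of 7 measured PGE2 genes in crypts 0 were called, with extremes of Ptger3 at -1.25 and Ptges2 at 0.49. Epithelial markers were abundant in every crypt library, with Epcam between 24666 and 38540 normalized counts, while the mesenchymal marker Dcn lay between 3458 and 5819, so the crypt samples also held mesenchymal RNA.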

How the data were processed

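The authors aligned the crypt and villus reads to mm10 with STAR, made gene counts and normalized them with DESeq2. Which program counted, on which strand and with what annotation is not given in the sources used here, so antisense and overlapping genes are uncertain. In the deposited tables each library has a signal, its gene count over a size factor. The authors' own comparison columns (log2 fold change, standard error and test score, p-value and adjusted p-value) were not used. The smallest mean was 48.4 in crypts and 8.82 in villi, and 100% of values were whole multiples of 1 read (tolerance 0.05 reads). Identical Ctrl villus columns were merged.

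Each tissue was fitted separately by limma-trend (version 3.58.1, in R 4.3.3) on log2(value + 1), keeping means of 1 or more, without a replicate block. The pseudocount understates changes of low genes. Alternatives were library size scaling, a pseudocount of 0.1, at least 10 reads in every library, no filter, a length correction (lowess, span 0.3, GENCODE M21 lengths), the replicate block and leaving out each library. edgeR 4.0.16 on the villus reads was added after seeing the data. Scripts were tested on simulated data. Coordinates are GRCm38, the assembly of mm10.

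The members and lists were chosen with earlier results of these data known. Named genes are the members, each list's highest and lowest crypt log2 fold change, genes past the study's threshold, a fixed set of pathway genes, and the 3 genes most correlated with each member. S100a6, Dusp1, Jun, Adam10 and Adam17 were named after their values were seen. Figures used matplotlib 3.10.9.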

Additional observations from a re-analysis of the deposited data

Results flagged for a closer look

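Of 61 named genes measured in both tissues, 23 had crypt groups that did not overlap, against 2343 of all 11227 shared genes. Some genes were named for a large crypt fold change, so the named count cannot be read against that of all genes. Of the 23, 10 moved the other way in both cKO villus libraries. The difference between tissues was not tested. No member of the Yap and regeneration response could be among them, because the crypt groups of every measured member overlapped. Of the members in both tissues, Clu (0.30 in crypts and -0.61 in villi), Anxa1 (0.38 and -0.60) and Ccn1 (-0.08 and 0.01) had opposite signs. Yap1, Ly6a and Areg had the same sign in both. Opposite directions were found in 62.0% of the 2343 genes with separate crypt groups. Stk3 was at -0.39 in crypts and 0.66 in villi on the log2 scale, Amotl2 at -0.41 and 0.35, Egfr at -0.42 and 0.33, Ptger4 at -0.20 and 0.55, Cdh1 at -0.18 and 0.37, and Mki67 at -0.44 and 2.05. In the other direction, Ly6d was at 1.69 in crypts and -0.71 in villi, Lyz2 at 1.20 and -1.04, Krt8 at 0.51 and -1.23, and Vsig2 at 1.81 and -0.46. The length trend of cKO crypt replicate 1 ran opposite to that of both cKO villus libraries, and its part in these directions was not tested.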

How the results depend on the processing

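Over 126 member values under the alternatives, no crypt value passed an adjusted p of 0.05. In villi Yap1 lost its call with length correction (0.20) and Ereg gained one with library size scaling (1.55). At the study's threshold, library size scaling called Yap1 (1.06) and Ereg, where 0 members were called before. The other alternatives with a test changed no call of a member. The cause was not tested. Crypt directions that turned were those of Yap1 (-0.039) and Wwtr1 (-0.019) with library size scaling and of Areg with length correction (-0.19, with or without the block). Leaving out each library in turn, the crypt log2 fold change ranged from -0.089 to 0.16 for Yap1, -0.34 to 0.44 for Wwtr1, -0.26 to 0.18 for Ly6a, 0.0051 to 0.59 for Clu (lowest without Ctrl replicate 2, highest without Ctrl replicate 1), -0.18 to 0.94 for Anxa1, -0.72 to 0.56 for Ccn1 and -0.78 to 0.98 for Areg. In villi, values with no test ranged from -0.54 to 0.56 for Ccn1 and from -0.37 to 0.82 for Areg.

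Same-numbered crypt libraries deviated together (correlation 0.247 across genes, 0.235 after length correction), but with 2 pairs this does not establish pairing. With the replicate block, crypt genes called went from 20 to 63 higher and from 1 to 15 lower at the study's threshold, from 0 to 34 at an adjusted p under 0.05 and from 73 to 368 at an unadjusted p under 0.05. With block and length correction 6 were lower and 312 had an unadjusted p under 0.05. Length correction alone gave 4 lower and 169, and library size scaling 4 lower. Leaving out each library gave 15 to 593 higher, 3 to 288 lower, 0 to 1987 at an adjusted p under 0.05 and 64 to 4000 at an unadjusted p under 0.05, each highest without cKO replicate 2. Without cKO replicate 1 the last count was 301 and 8 genes were lower, without Ctrl replicate 2 the counts were 4 at an adjusted p under 0.05 and 5 lower, and without Ctrl replicate 1 it was 3 lower. Villus calls were 2828 higher and 159 lower with library size scaling, and 708 higher, 384 lower and 2427 at an adjusted p under 0.05 with length correction.

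The crypt median log2 fold change ranged, leaving out each library, from -0.0097 to 0.45 for the members, -0.53 to 0.12 for the Hippo cascade, -0.47 to 0.24 for YAP targets, -0.0073 to 0.34 for fetal-like genes, -0.32 to -0.072 for PGE2 genes and -0.43 to 0.75 for immediate early genes. For PGE2 genes it was -0.010 with length correction, with or without the block. In the villi no fit with a replicate block could be made, because they have 1 Ctrl library. DESeq2 and edgeR on crypt reads were not run, since the lowest crypt values stand for 3 to 8 reads, so the value of 1 read was inferred and not seen. Depth limits the low members, as Ereg rests on 12 to 51 reads and Ly6a on 40 to 54 in the villus libraries. Ccn1 rests on 40 to 110 reads in the villus libraries, and Areg on 25 to 92 in the crypt libraries.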

Other observations

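The 33 crypt genes in which both libraries numbered 1 held over double the counts of both numbered 2 were picked after their values were seen. Beside Ccn1 they held Fos, Dusp1, Atf3 and Nab2, which respond to growth factors, and Anxa8, an annexin of the fetal-like list. They also held Cd74, H2-Ab1, H2-DMa and H2-DMb1 of MHC class II antigen presentation. H2-Ab1 held 1198 and 287 normalized counts in Ctrl and 1257 and 410 in cKO crypts. Saa3, an acute-phase protein gene, held 801 and 91.8 in Ctrl and 1152 and 394 in cKO, and the protease inhibitor gene Slpi 2815 and 822 in Ctrl and 3324 and 798 in cKO. Timp1 and Vcam1, which stromal cells make, were among them too. Of the 9 measured mesenchymal markers, 0 were higher in both libraries numbered 1, against 25.8% of all genes. Likewise 0 of the 9 were higher in both libraries numbered 2, against 26.4% of all genes.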
